A study of Mus musculus with 27 samples.

Results

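The activation of CD8 T cells that carry a let-7g transgene was followed in 6 of the 27 RNA-seq libraries of the series, chosen by their labels: 3 libraries of naive let-7Tg cells and 3 libraries of let-7Tg cells after 12 h of activation. No measured value entered this choice, and all genes were compared. The same step in WT and lin28Tg cells, with 6 libraries each, served as the comparison, so that 18 libraries were fitted together.

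let-7 is a family of microRNAs, short RNAs that pair through their seed with sites in the 3′ UTR of messenger RNAs and lower their translation and stability. Naive CD8 T cells hold much let-7, and T cell receptor (TCR) stimulation lowers it while the cell leaves quiescence, grows and prepares to divide. In let-7Tg cells a transgene supplies let-7g during this step, and in lin28Tg cells the Lin28 protein blocks the maturation of let-7. The comparison therefore asks which parts of the activation response take place when let-7 is supplied from a transgene.

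Every group carried the P14 transgene, a TCR specific for the gp33 peptide of lymphocytic choriomeningitis virus, on a Rag2-/- background, so that T cells with other receptors and B cells do not develop. The let-7Tg mice express let-7g under doxycycline, which all mice, WT and lin28Tg controls included, received in the drinking water and which was kept at 2 μg/ml in the medium of the 12 h cultures. The let-7g transgene lies in the Col1a1 locus, and neither it nor the lin28 transgene is tied to a cell type in the labels. Mice were of both sexes and aged 6 to 10 weeks, and the labels give lymph nodes as the tissue, while the protocol also names spleens as harvested. They were activated with anti-CD3 at 2 μg/ml and anti-CD28 at 5 μg/ml for 12 h, and naive cells were left untreated. The replicates are biological according to the study, but the labels do not tie a library to an animal, and p-values measure only the spread between these libraries.

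The let-7 family is shown first, since the seed defines what the transgene can pair with. RefSeq places 11 mature names at 13 loci of the mouse genome (GRCm38.p6) that share 1 seed, bases 2 to 8, in capitals. The transgene encodes let-7g, whose own gene lies at chr9:106178846-106178867 on the plus strand.
let-7g-5p: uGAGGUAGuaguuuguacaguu
let-7a-5p: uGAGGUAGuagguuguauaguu
let-7b-5p: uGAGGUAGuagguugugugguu
let-7i-5p: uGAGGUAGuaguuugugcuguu
miR-98-5p: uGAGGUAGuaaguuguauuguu
Of these, let-7a and let-7i differ from let-7g at 2 bases and let-7b and miR-98 at 4, all of them outside the seed. The tables list genes and no mature microRNAs, so the level of let-7g itself was not analysed here.

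Col1a1, at whose locus the transgene sits and which T cells otherwise hardly transcribe, was at 10.1, 19.3 and 26.6 FPKM in naive let-7Tg libraries and at 21.5, 62.8 and 37.7 FPKM at 12 h, against at most 1.43 FPKM in naive and 0.1 FPKM in 12 h WT libraries. Lin28b, the transgene product of lin28Tg cells, was at most 0.0358 FPKM in any let-7Tg library. Cd8a and Cd8b1, which encode the CD8 coreceptor, were at 500 to 846 FPKM in naive let-7Tg libraries, while Cd4 was at 4.39 to 7.25 FPKM.

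Some features of the 6 libraries touch the results below. Xist, transcribed in female cells, was at 154 and 205 FPKM in naive replicates 2 and 3 and at or below 0.07 FPKM in the other 4 libraries, in which Ddx3y of the Y chromosome was at 37.4 to 60.6 FPKM. Naive replicates 2 and 3 thus read as female and the other 4 libraries as male, and sex was not balanced between the stages. A fit with a term for libraries above 1 FPKM of Xist, added after the data were seen, called 4832 genes higher and 4822 lower at 12 h, close to the counts given below.

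The 12 h replicate 2 stood apart from the other two. In it 344 genes lay more than 1 on the log2 scale above the mean of the other two 12 h replicates and 45 lay more than 1 below, against 31 to 116 above and 33 to 157 below for each of the other 5 libraries. Counted reads per library ranged from 13862706 to 16120022 over the 6 libraries.

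Markers of some other cell types fell together with the change of stage, and so did those of CD8 T cells. Of 9 CD8 T cell markers 8 fell, with sums of 6430 to 7240 FPKM in naive and 2390 to 2920 FPKM in 12 h libraries. The 2 neutrophil markers tested fell too. The summed level of 8 dendritic cell markers was 269 to 582 FPKM in naive and 32.1 to 117 FPKM in 12 h libraries, with replicate 2 the highest at 12 h, and 6 of the 8 fell. The 10 myeloid markers summed to 29.8 to 81.9 FPKM in naive libraries and 5.81 to 9.46 FPKM at 12 h, and 8 of them fell, while the 6 NK cell markers summed to 45.5 to 87.2 and 9.81 to 20.5 FPKM and all 6 fell. Of 5 stromal and 4 CD4 T cell markers tested 2 each fell, and of 4 erythroid markers 0 did, with erythroid sums of 33.3, 1.47 and 7.35 FPKM in naive and 3.8, 0.863 and 0.774 FPKM in 12 h libraries. Of 4 B cell markers tested 3 fell, and the sum was 380 to 431 FPKM in naive and 39.1 to 80.8 FPKM in 12 h libraries. Ighm made nearly all of this sum. Cd79b was at 12.7, 19.8 and 15.1 FPKM in naive and 1.15, 1.05 and 1.32 FPKM in 12 h libraries. Ms4a1 and Pax5 were at 0 or up to 0.067 FPKM in every let-7Tg library. In bulk RNA fewer cells of a type and less RNA per cell cannot be told apart, and the part of such cells in the changes below was not tested.

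Activation changed most of the transcriptome. Of 13874 genes tested with limma, 5030 were higher at 12 h (36.3%) and 5029 were lower (36.2%) at an adjusted p under 0.05, and 2335 (16.8%) and 2523 (18.2%) of them changed at least 2-fold. The median change of the called genes was 0.932 among those that rose and -1 among those that fell on the log2 scale, and single genes moved by up to 10.1 and -6.39. The deposited FPKM of the 2 stages did not overlap, with all 3 libraries higher at 12 h, in 4213 genes (30.4%), and with all 3 lower in 6144 (44.3%). FPKM and its scaled form are shares of a library, and the amount of RNA per cell, which grows during activation, was not measured. The equal split rests on the scaling: without scaling between libraries 4142 genes rose and 6026 fell, and the median of all genes moved from -0.0299 to -0.2 on the log2 scale.

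Of the 6 genes with the largest rise 3 encode chemokines. Ccl3, a chemokine that recruits immune cells, stood at 2.10, 0.0929 and 0.471 FPKM in the naive libraries and at 1100.0, 1173 and 986 FPKM after 12 h (log2 change 10.05, SE 0.59, adjusted p = 1.59e-10). Ccl4, a related chemokine, went from 2.64, 0.431 and 0.765 FPKM to 1062, 1674 and 1153 FPKM (log2 change 9.87, SE 0.49, adjusted p = 2.1e-11). Xcl1, the chemokine that attracts XCR1+ dendritic cells, was at 8.88, 1.91 and 3.03 FPKM before and 2005, 3254 and 2189 FPKM after (log2 change 9.36, SE 0.56, adjusted p = 2.23e-10). In these chemokines naive replicate 1 was the highest of the naive libraries and still far below any 12 h library. Rgs16, a brake on chemokine receptor signaling, had 0.524, 0.122 and 0.247 FPKM and then 241, 289 and 280.4 FPKM (log2 change 8.58, SE 0.23, adjusted p = 2.39e-14). Irf4, the factor whose level follows TCR signal strength, had 1.44, 0.906 and 1.25 FPKM and then 294, 282 and 299 FPKM, with the 3 libraries of each stage close together (log2 change 7.63, SE 0.12, adjusted p = 3.04e-16).

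The 6 genes with the largest fall were Rasgrp2, Ggt1, S1pr1, Adgrg5, Cd7 and Ifit3. Rasgrp2, an activator of the small GTPase Rap1 that acts in integrin adhesion, was at 407, 645 and 515 FPKM in naive and 4.69, 7.93 and 2.80 FPKM in activated cells (log2 change -6.39, SE 0.29, adjusted p = 8.72e-12). Ggt1, a glutathione hydrolase of the cell surface, was at 96.8, 106 and 75.6 FPKM and then at 0.507, 0.452 and 0.499 FPKM (log2 change -6.36, SE 0.23, adjusted p = 5.01e-13). S1pr1, the receptor that lets T cells leave lymph nodes, was at 144, 172 and 143 FPKM and then at 0.770, 3.72 and 0.389 FPKM (log2 change -6.31, SE 0.59, adjusted p = 5.49e-08). Cd7, a surface protein of T and NK cells, and Adgrg5, an adhesion receptor, fell by 5.82 and 6.02. For S1pr1, Cd7 and Ifit3 the 12 h replicate 2 lay well above the other 12 h libraries while remaining far below every naive library.

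**Figure D1:**
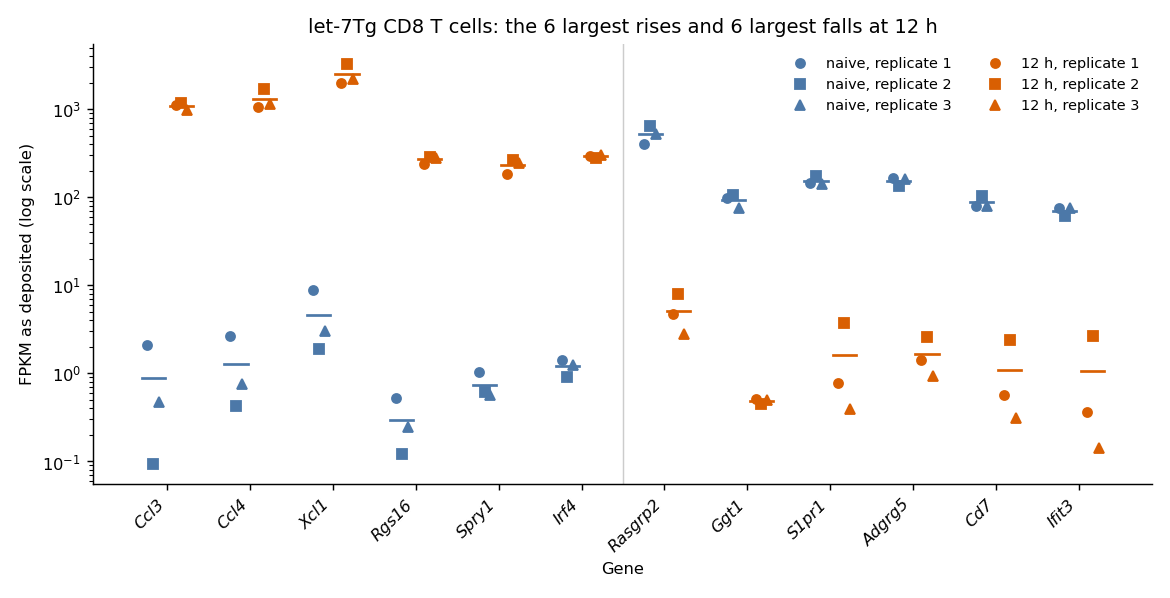
Level of the 6 genes with the largest rise and the 6 with the largest fall among genes whose stages did not overlap and whose higher group averaged at least 10 FPKM. The y axis is the deposited FPKM on a log scale, each point is 1 library (circle, square and triangle for replicates 1, 2 and 3), and short lines are means. Naive libraries (blue) sit below 9 FPKM for the 6 rising genes and 12 h libraries (orange) below 8 FPKM for the 6 falling ones, where replicate 2 is the highest in 5 of 6.

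Genes were next read by their role, from lists of known members. Each list is given by how many of its tested members rose, fell or were not called, beside the 36.3% and 36.2% of all genes.

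**Figure D2:**
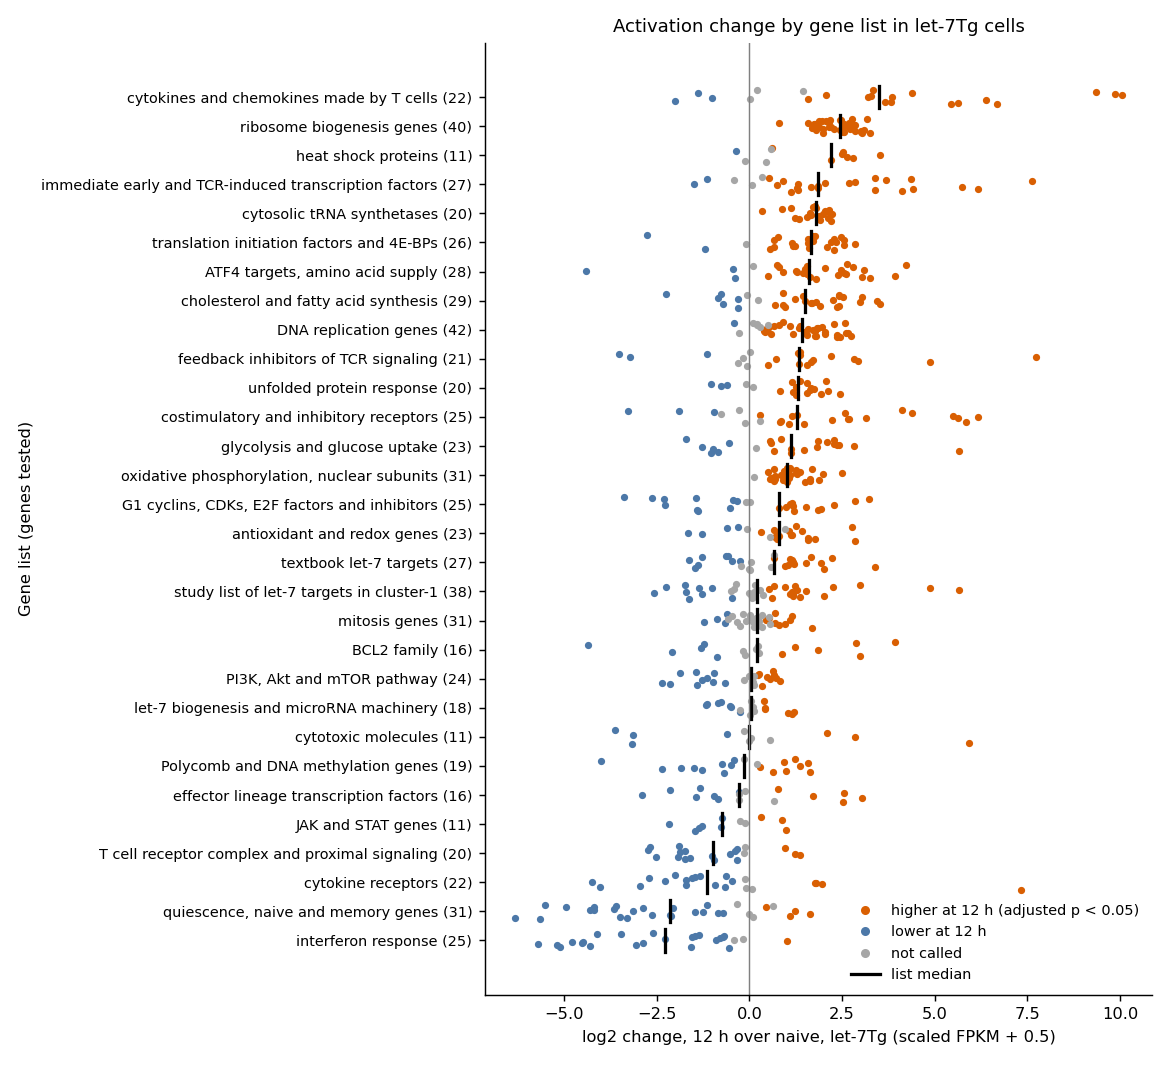
Change of each member of the gene lists between naive and 12 h let-7Tg cells. The x axis is the log2 change of scaled FPKM + 0.5, points are genes (orange higher, blue lower, grey not called at adjusted p under 0.05), black bars are list medians, and lists are ordered by their median, from 3.49 for cytokines and chemokines to -2.28 for the interferon response.

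Of 27 transcription factors that TCR signals induce, 22 rose and 2 fell, with a median of 1.84 on the log2 scale. Nr4a2, an orphan nuclear receptor, had 0.224, 0.402 and 0.816 FPKM in naive and 60.8, 80.2 and 44.9 FPKM in 12 h libraries (log2 change 6.16, SE 0.27, adjusted p = 3.95e-12). Fosl1, an AP-1 subunit, had 1.36, 1.5 and 1.23 FPKM and then 59.5, 116 and 90.9 FPKM (log2 change 5.73, SE 0.21, adjusted p = 6.36e-13). Nr4a3 rose by 4.41 and Egr2, which acts in the negative control of activation, by 4.11. Myc, the factor that drives growth and metabolism of activated T cells, was at 55.8, 49.4 and 56.0 FPKM in naive cells and at 531, 424 and 489.5 FPKM at 12 h (log2 change 3.38, SE 0.10, adjusted p = 6.99e-14). The NF-κB subunits Rel, Nfkb1 and Nfkb2 rose by 2.86, 2.68 and 2.05.

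Other members changed little or fell. Fos, induced within minutes of stimulation, was at 7.5, 3.91 and 6.14 FPKM before and 9.35, 21.7 and 9.20 FPKM after 12 h (log2 change 1.28, SE 0.47, adjusted p = 0.0222), and without the 12 h replicate 2 the call was lost (log2 change 0.94, adjusted p = 0.105). Ier3, Jund and Batf were not called, with log2 changes of 0.35, 0.073 and -0.41. Nfatc2, the NFAT factor held ready in resting T cells, fell from 35.1, 29.5 and 41.4 to 10.8, 9.82 and 9.89 FPKM (log2 change -1.5, SE 0.14, adjusted p = 4.71e-08), whereas the inducible Nfatc1 rose from 46.1, 42.1 and 47.6 to 84.3, 111 and 96.1 FPKM (log2 change 1.32, SE 0.08, adjusted p = 2.39e-10). Bhlhe40, a repressor that supports cytokine production, was at 6.16, 2.59 and 2.62 FPKM in naive and 57.9, 105 and 56.9 FPKM in activated libraries (log2 change 4.36, SE 0.33, adjusted p = 3.86e-09).

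Inhibitors that feed back on TCR signaling rose in 14 of 21 cases and fell in 3, with a median of 1.35. Spry1, which restrains Ras signaling, went from 1.03, 0.610 and 0.562 FPKM to 183, 265 and 243 FPKM (log2 change 7.73, SE 0.25, adjusted p = 1.71e-13). The MAP kinase phosphatases Dusp4 and Dusp5 rose by 4.87 and 2.93, and Cish, an inhibitor of cytokine signaling, by 2.82. Tnfaip3, which ends NF-κB signaling, was at 37.0, 34.3 and 35.2 FPKM in naive libraries and at 58.3, 153 and 52.2 FPKM at 12 h, with replicate 2 well above the other two (log2 change 1.35, SE 0.26, adjusted p = 0.000164). The 3 that fell were Dgka, Dgkz and Socs3. Dgka, a kinase that removes diacylglycerol and keeps resting T cells unresponsive, had 378, 445 and 419.7 FPKM in naive and 33.5, 28.5 and 28.8 FPKM in 12 h cells (log2 change -3.52, SE 0.10, adjusted p = 4.62e-14). Socs3, an inhibitor of IL-6 family signals, had 87.1, 84.8 and 85.5 FPKM and then 9.38, 9.09 and 4.81 FPKM (log2 change -3.21, SE 0.20, adjusted p = 2.71e-10). Zc3h12a, Nfkbia, Socs1 and Dusp1 were not called, with changes between -0.31 and 0.02.

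The TCR complex and its proximal signaling genes moved the other way, with 15 of 20 lower and 3 higher and a median of -0.981. Cd8a fell from 529, 544 and 499.5 FPKM to 141, 99.8 and 112 FPKM (log2 change -1.92, SE 0.14, adjusted p = 2.05e-09), and Cd8b1 from 846, 844 and 695 FPKM to 136, 103 and 111 FPKM (log2 change -2.53, SE 0.14, adjusted p = 4.87e-11). The largest falls were those of Themis, an adaptor of TCR signaling, with -2.75, and Thy1 with -2.67. The CD3 chain genes fell unequally, by 0.32 for Cd3e, 0.94 for Cd3d, 1.73 for Cd3g and 1.60 for Cd247. The risers were the kinases Zap70 and Fyn and the adaptor Lcp2. Zap70 was at 324, 367 and 375 FPKM in naive and 658, 899 and 808 FPKM in activated cells (log2 change 1.38, SE 0.11, adjusted p = 8.41e-09). Csk was not called, at -0.10.

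Costimulatory and inhibitory receptors rose in 18 of 25 cases and fell in 3, with a median of 1.29. Lag3, an inhibitory receptor for MHC class II, was at 4.78, 2.70 and 3.62 FPKM in naive libraries and at 134, 367 and 328 FPKM at 12 h (log2 change 6.16, SE 0.45, adjusted p = 2.65e-09). Tnfrsf9, which encodes the costimulatory receptor 4-1BB, went from 8.29, 6.23 and 6.55 to 412, 422 and 282 FPKM (log2 change 5.84, SE 0.17, adjusted p = 4.8e-14). Pdcd1, which encodes PD1, went from 1.44, 1.29 and 2.50 to 82.4, 96.0 and 105 FPKM (log2 change 5.64, SE 0.21, adjusted p = 6.56e-13), and Tigit rose by 5.48. These 4 genes had naive levels near or below 8 FPKM and no overlap between stages. The activation markers Cd69 and Cd44 rose by 2.23 and 2.66. Havcr2, which encodes Tim3, was low throughout, at 0.319, 0.108 and 0.220 and 0.216, 3.69 and 0.614 FPKM, and its call (log2 change 1.16, SE 0.48, adjusted p = 0.0402) was lost without the 12 h replicate 2 (log2 change 0.44, adjusted p = 0.288). Cd96 and Cd226, which compete for the same ligand, fell by 3.26 and 1.91. Entpd1 fell by 0.95, a call that needed the 12 h replicate 2, and Tnfrsf1b, Cd27, Slamf6 and Cd244a were not called, at 0.28, -0.12, -0.28 and -0.77.

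Cytokine receptors fell in 15 of 22 cases and rose in 4, with a median of -1.13. Il2ra, the high affinity subunit of the IL-2 receptor, was the exception in size, at 2.14, 1.42 and 2.17 FPKM in naive and 314, 389 and 301 FPKM in 12 h libraries (log2 change 7.33, SE 0.18, adjusted p = 1.44e-14). Il12rb2, which makes cells responsive to IL-12, went from 3.78, 3.36 and 3.84 to 20.2, 13.3 and 6.34 FPKM, with 12 h libraries far apart from each other (log2 change 1.81, SE 0.35, adjusted p = 0.000191). Il7r, the receptor for the survival cytokine IL-7, fell from 103, 82.1 and 62.9 FPKM to 2.77, 14.4 and 1.14 FPKM, where replicate 2 was again the highest (log2 change -4.02, SE 0.67, adjusted p = 4.31e-05). Il18r1 fell by 4.23 and Il6ra, the IL-6 receptor, by 2.94. Il4ra was at 58.7, 53.5 and 50 FPKM and then at 31.1, 29.9 and 25.4 FPKM (log2 change -0.67, SE 0.09, adjusted p = 4.14e-06). Il2rb and Il2rg, the other subunits of the IL-2 receptor, and Il1rl1 were not called, at 0.064, -0.10 and -0.13.

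Of 11 JAK and STAT genes 3 rose and 6 fell. Jak3, the kinase bound to the common γ chain, fell from 97.3, 109.9 and 119 FPKM to 34.2, 37.4 and 35.8 FPKM (log2 change -1.35, SE 0.09, adjusted p = 4.55e-10), and Jak1, its partner, from 788, 711 and 779.5 FPKM to 252, 223 and 230.2 FPKM (log2 change -1.45, SE 0.08, adjusted p = 7.8e-11). The STAT5 genes, which sit next to each other and act below IL-2, moved in opposite directions. Stat5a had 44.7, 41.6 and 50.3 FPKM in naive and 73.3, 76.7 and 63.9 FPKM in 12 h cells (log2 change 0.88, SE 0.11, adjusted p = 2.34e-06), and Stat5b had 65.2, 68.8 and 73.0 and 32.4, 41.2 and 31.1 FPKM (log2 change -0.75, SE 0.10, adjusted p = 3.33e-06). Stat3 and Stat4 were not called, at -0.13 and -0.25. Stat5a kept its rise and Stat5b its fall under the 17 alternatives tried.

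Cytokines and chemokines had the highest list median, 3.49, with 16 of 22 tested members higher and 3 lower. Ifng, the main cytokine of type 1 responses, was at 1.28, 0.118 and 0.299 FPKM in naive and 90.5, 127 and 56.7 FPKM in 12 h libraries (log2 change 6.67, SE 0.44, adjusted p = 6.82e-10). Il2, the growth factor of T cells, was at 0.226, 0 and 0 FPKM and then at 11, 28.9 and 34.8 FPKM, with the 12 h replicate 1 below the others (log2 change 5.45, SE 0.35, adjusted p = 5.58e-10). Lif and Il3 rose by 6.38 and 5.63, and the TNF family members Tnf, Lta, Tnfsf8 and Tnfsf14 by 3.83, 3.66, 3.85 and 3.27. Ltb, the partner of lymphotoxin α, fell from 501, 688 and 478 to 83.3, 165 and 113 FPKM (log2 change -2.0, SE 0.24, adjusted p = 1.38e-06). Ccl5 and Osm also fell, by 1.38 and 1.00. Cxcl10 was at 3.83, 4.23 and 4.39 FPKM and at 6.69, 40.2 and 4.04 FPKM and was not called (log2 change 1.46, SE 0.65, adjusted p = 0.055), and Tgfb1 and Csf1 were at 0.21 and 0.022. In the 12 h replicate 2, 19 of the 22 were above the mean of the other two, with a median of 0.551. Il10, Il21 and Il24 did not pass the filter on low values, at 0 to 0.0728 FPKM.

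Cytotoxic molecules did not move together, with 3 of 11 tested members higher, 4 lower and 4 not called. Gzmb, which encodes the protease granzyme B, was at 5.91, 2.26 and 1.48 FPKM in naive libraries and at 386, 114 and 111 FPKM at 12 h, where replicate 1 was far above the other two (log2 change 5.92, SE 0.61, adjusted p = 1.93e-07). Fasl, the ligand of the death receptor Fas, had 0.567, 0.110 and 0.373 FPKM and then 2.54, 8.16 and 5.71 FPKM (log2 change 2.86, SE 0.33, adjusted p = 6.94e-07), and Srgn, the proteoglycan of granules, rose by 2.10. Prf1, which encodes the pore former perforin, was at 61.4, 65.3 and 55.0 and 53.5, 67.2 and 41.9 FPKM and was not called (log2 change 0.055, SE 0.24, adjusted p = 0.845). Gzmc was at 9.05, 3.12 and 2.01 and 4.86, 4.28 and 1.73 FPKM, with overlapping stages (adjusted p = 1), and Gzmm and Lamp1 were not called either, at 0.55 and -0.15. Ctsw, Gzma, Tnfsf10 and Nkg7 fell, by 3.62, 3.17, 3.13 and 0.61. Gzmd, Gzme, Gzmf and Gzmk did not pass the filter, with at most 0.209 FPKM.

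Genes of quiescence and of naive and memory cells fell in 23 of 31 cases and rose in 4, with a median of -2.14. Klf2, the factor that maintains quiescence and drives S1pr1, was at 283, 558 and 275 FPKM in naive and 4.85, 12.8 and 2.59 FPKM in activated cells (log2 change -5.64, SE 0.52, adjusted p = 4.27e-08). Tcf7, the factor of naive and stem-like memory cells, fell from 680.0, 687 and 687 FPKM to 114, 84.5 and 86.7 FPKM, with naive libraries close together (log2 change -2.62, SE 0.13, adjusted p = 2.6e-11). Its relative Lef1 fell by 2.14, Foxo1 by 2.11, and the chemokine receptor Cxcr4 by 5.52. Ccr9, another chemokine receptor, fell by 4.95. Ccr7, a homing receptor of naive cells, was at 191, 176 and 149 and 234, 138 and 113 FPKM and was not called (log2 change 0.09, SE 0.22, adjusted p = 0.72). Id3, Bcl6 and Cxcr3 were not called, at -0.001, -0.34 and 0.64. The risers included Bach2, a repressor that holds back effector genes, with 31.8, 27.6 and 32.0 FPKM in naive and 93.2, 72.1 and 80.7 FPKM in 12 h libraries (log2 change 1.65, SE 0.11, adjusted p = 7.35e-10). Foxp1, Slfn2 and Vsir rose by 1.09, 1.23 and 0.46.

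Among 16 lineage factors 5 rose, 7 fell and 4 were not called. Tbx21, which encodes T-bet, was at 8.66, 4.23 and 6.81 FPKM and then at 33.7, 39.9 and 27.0 FPKM (log2 change 2.53, SE 0.26, adjusted p = 1.89e-07). Rbpj, the DNA-binding partner of Notch, was at 13.4, 10.6 and 10.1 FPKM and then at 65.2, 52.4 and 56.7 FPKM (log2 change 2.54, SE 0.12, adjusted p = 1.04e-11), while Notch2 was at 12.1, 9.19 and 11.3 and 8.83, 8.17 and 7.95 FPKM and was not called (log2 change -0.13, SE 0.12, adjusted p = 0.324). Zeb2 and Hif1a rose by 3.03 and 1.72. Eomes, a factor of effector and memory CD8 cells and a known let-7 target, was at 13.8, 8.38 and 13.9 FPKM in naive and 28.9, 17.4 and 8.0 FPKM in activated libraries, which overlapped (log2 change 0.66, SE 0.37, adjusted p = 0.119). Myb and Prdm1 were not called, at -0.27 and -0.29. Ikzf2, Gata3, Runx3 and Tox fell by 2.89, 2.15, 1.43 and 1.34.

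Of 16 BCL2 family genes tested 6 rose, 5 fell and 5 were not called, near the shares of all genes. The survival gene Bcl2l1, which encodes Bcl-xL, went from 12.2, 12.8 and 14.9 FPKM to 102, 84.9 and 92.5 FPKM (log2 change 2.99, SE 0.15, adjusted p = 2.93e-11), while Bcl2 fell from 35.9, 27.3 and 28.3 FPKM to 14.8, 16.4 and 10.6 FPKM (log2 change -0.88, SE 0.19, adjusted p = 0.000477). Of the proapoptotic BH3-only genes, Bmf fell by 4.35, Bbc3 by 2.09 and Bad by 1.30, Bid rose by 1.23, and Bcl2l11, Pmaip1 and Bik were not called. The effector Bax rose from 111, 119 and 104 to 331, 369 and 320.4 FPKM (log2 change 1.84, SE 0.06, adjusted p = 3.65e-13), and Bak1 and Mcl1 were not called, at 0.18 and -0.12. Bcl2a1d and Bcl2a1b rose by 3.94 and 2.88 and Bcl2a1a fell by 1.21, but these copies are nearly identical and their reads cannot be split with certainty.

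All 40 ribosome biogenesis genes rose, 39 of them at least 2-fold, with a median of 2.45. Ncl, which encodes nucleolin, went from 228, 208 and 212 FPKM to 1846, 1622 and 1790.0 FPKM (log2 change 3.25, SE 0.10, adjusted p = 5.95e-14). Npm1, which encodes the ribosome assembly factor nucleophosmin, went from 442, 454 and 381 FPKM to 3286, 2382 and 3226 FPKM (log2 change 3.03, SE 0.14, adjusted p = 7.06e-12). Nop2, a methyltransferase of ribosomal RNA, went from 27.5, 28 and 24.8 FPKM to 186, 179 and 194 FPKM (log2 change 3.01, SE 0.07, adjusted p = 1.44e-14). The smallest rise was that of Ubtf, a factor of RNA polymerase I, with 0.79. In the 12 h replicate 2 all 40 were below the mean of the other two replicates, by a median of 0.26 on the log2 scale, which is small beside the rise.

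The promoter of Nop2 is printed because it holds the letters CACGTG, the E-box that MYC and MAX bind. The stretch runs from 250 bases before to 50 after the start of the gene, chr6:125131633-125131932 on the plus strand (RefSeq, GRCm38.p6), with the match in capitals 60 bases before the start.
Nop2: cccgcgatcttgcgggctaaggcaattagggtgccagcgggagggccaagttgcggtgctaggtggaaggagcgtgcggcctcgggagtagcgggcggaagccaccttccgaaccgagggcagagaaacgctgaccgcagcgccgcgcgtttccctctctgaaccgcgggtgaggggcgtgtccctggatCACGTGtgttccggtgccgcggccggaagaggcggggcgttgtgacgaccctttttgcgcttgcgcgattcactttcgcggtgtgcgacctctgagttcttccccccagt
CACGTG, which reads the same on both strands, stood in 9 of 36 ribosome biogenesis promoters (25%), against 7.24% of 27025 promoters of this length and 10.1% of those of tested genes. Among tested genes that rose at least 2-fold it was in 14.3% and among those that fell in 7.08%. Here and for the motifs below, a match is a description of the letters and not of a bound site. The lists were made of known members, and their shares describe the lists and are not a test.

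Translation factors followed, with 23 of 26 higher and 2 lower and a median of 1.66. Eif5a, which helps ribosomes over difficult stretches, was at 373, 406 and 389 FPKM in naive and 2388, 2230.0 and 2495 FPKM in 12 h libraries (log2 change 2.84, SE 0.09, adjusted p = 1.04e-13). Eif4e, which binds the cap of messenger RNA, rose by 2.29, and its relative Eif4e2, which represses translation, rose less, from 48.3, 43.4 and 49.9 to 63.6, 54.9 and 58.1 FPKM (log2 change 0.55, SE 0.07, adjusted p = 5.12e-06). Pdcd4, which inhibits the helicase eIF4A, fell from 154, 151 and 131 to 21.9, 19.7 and 13.2 FPKM (log2 change -2.75, SE 0.16, adjusted p = 1.13e-10). Eif4e3 fell by 1.18, and Eif4ebp2 was not called, at -0.10.

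Genes of amino acid supply, many of them targets of the stress factor ATF4, rose in 24 of 28 cases and fell in 3, with a median of 1.6. Odc1, the first enzyme of polyamine synthesis, was at 20.7, 18.3 and 16.4 FPKM and then at 331, 266 and 300 FPKM (log2 change 4.22, SE 0.12, adjusted p = 3.32e-14). Slc7a5, a transporter of large neutral amino acids, was at 47.5, 49.3 and 40.2 FPKM and then at 312, 345 and 340.3 FPKM (log2 change 3.09, SE 0.11, adjusted p = 3.32e-13). Shmt1 and Psat1, enzymes of serine and one-carbon metabolism, rose by 3.93 and 3.04, and Asns, the asparagine synthetase, by 3.26 from at most 0.144 FPKM. Slc16a10, a transporter of aromatic amino acids, was at 7.16, 5.32 and 6.87 FPKM and 12.8, 6.43 and 10.1 FPKM, and its stages overlapped through the 12 h replicate 2 (log2 change 0.75, SE 0.20, adjusted p = 0.00267). Ddit4, an inhibitor of mTORC1, fell from 319, 467 and 179.8 to 12.5, 16.8 and 7.22 FPKM (log2 change -4.41, SE 0.33, adjusted p = 3.87e-09). Ddit3 and Slc7a11 fell by 0.38 and 0.45, and Slc38a2 was not called, at 0.091.

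All 20 cytosolic tRNA synthetases rose, with a median of 1.79 and a range from 0.34 for Qars to 2.23 for Kars. Kars, which charges lysine, was at 52.0, 50.8 and 51.7 FPKM in naive and 223, 179 and 222 FPKM in 12 h cells (log2 change 2.23, SE 0.10, adjusted p = 3.39e-12). Aars, which charges alanine, was at 53.2, 64.5 and 48.5 FPKM and then at 201, 211 and 234 FPKM (log2 change 2.19, SE 0.11, adjusted p = 2.11e-11). All 20 were lower in the 12 h replicate 2 than in the mean of the other two, by a median of 0.247.

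The promoter of Aars is shown because it holds TTGCATCA, the element that ATF4 binds in its targets, in capitals 112 bases before the start (chr8:111033592-111033891, plus strand, GRCm38.p6, RefSeq).
Aars: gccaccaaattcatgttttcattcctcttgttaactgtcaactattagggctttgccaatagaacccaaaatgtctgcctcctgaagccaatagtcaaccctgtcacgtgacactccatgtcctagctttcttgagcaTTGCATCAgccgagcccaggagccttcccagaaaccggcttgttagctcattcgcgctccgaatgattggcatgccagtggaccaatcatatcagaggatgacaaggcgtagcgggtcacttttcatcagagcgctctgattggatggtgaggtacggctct
TTGCATCA or its complement stood in 4 of 12 synthetase promoters (33.3%), those of Aars, Iars, Tars and Yars, and in 4 of 25 promoters of the amino acid supply list (16.0%), those of Pycr1, Chac1, Slc7a11 and Slc1a4. It stood in 0.929% of all promoters of this length and in 0.667% of those of tested genes. Of these 8 genes 7 rose and Slc7a11 fell.

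Chaperones of the endoplasmic reticulum and of the cytosol rose as well. Of 20 genes of the unfolded protein response 15 rose and 3 fell, with a median of 1.31. Hspa5, which encodes the chaperone BiP, was at 233, 224 and 228 FPKM in naive and 1057, 997 and 1113 FPKM in activated libraries (log2 change 2.44, SE 0.09, adjusted p = 4.06e-13). Pdia6 and Hyou1 rose by 2.13 and 2.07, the quality control genes Edem1, Dnajc3 and Herpud1 fell by 1.04, 0.77 and 0.61, and Dnajb9 and Sel1l were not called. Of 11 heat shock genes 7 rose and 1 fell. Hspd1, the mitochondrial chaperonin, went from 131, 112 and 104 to 1250.0, 914 and 1230.0 FPKM (log2 change 3.52, SE 0.14, adjusted p = 1.53e-12), and Hsp90ab1 reached 8879, 7509 and 9394 FPKM. The stress-induced Hspa1a and Hspa1b, whose reads are shared between near-identical copies, were not called, at 0.45 and -0.12, and neither was Hspb1.

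The ER stress response element lies in the promoter of Hspa5, in capitals from 65 bases before the start (chr2:34771840-34772139, plus strand, GRCm38.p6, RefSeq).
Hspa5: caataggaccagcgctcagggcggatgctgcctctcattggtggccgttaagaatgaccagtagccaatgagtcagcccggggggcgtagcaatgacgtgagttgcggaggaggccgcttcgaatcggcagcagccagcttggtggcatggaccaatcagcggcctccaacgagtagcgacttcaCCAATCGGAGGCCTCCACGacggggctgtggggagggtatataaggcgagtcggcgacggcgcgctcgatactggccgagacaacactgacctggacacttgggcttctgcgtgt
This element, searched on both strands, was in 7 of 16 promoters of the list (43.8%), in 0.13% of all promoters and in 0.164% of those of tested genes. Its bearers Hspa5, Hsp90b1, Pdia6, Calr, Canx and Creld2 rose, while Dnajc3 fell.

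Glycolysis rose in 16 of 23 genes and fell in 6, with a median of 1.12. Hk2, the inducible hexokinase, was at 1.70, 0.696 and 0.706 FPKM in naive and 73.2, 58.7 and 62.3 FPKM in 12 h cells (log2 change 5.65, SE 0.23, adjusted p = 1.53e-12), while the constitutive Hk1 fell from 177, 168 and 183 to 77.9, 82.1 and 88.7 FPKM (log2 change -0.85, SE 0.10, adjusted p = 1.22e-06). The glucose transporters parted too, with Slc2a1 higher by 1.12 and Slc2a3 lower by 1.04. Tpi1, Gapdh and Pgk1 rose by 2.82, 2.41 and 2.36, and Gapdh reached 3533, 3158 and 4212 FPKM. Pdk1, which encodes an inhibitor of pyruvate dehydrogenase, fell by 1.71, and Pfkfb3 was not called, at 0.18.

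Nuclear genes of oxidative phosphorylation rose in 30 of 31 cases, with a median of 1.02. Cycs, which encodes cytochrome c, had 37.2, 31.9 and 34.5 FPKM in naive and 169, 160.3 and 169.8 FPKM in activated libraries (log2 change 2.49, SE 0.09, adjusted p = 6.01e-13). Atp5b, of the ATP synthase, had 748, 766 and 689.9 and 2024, 1921 and 2061 FPKM (log2 change 1.69, SE 0.09, adjusted p = 4.87e-11), and Sdha was the 1 gene not called (0.13). Of 9 mitochondrially encoded genes 2 rose and 2 fell, with no change of 2-fold. Among them mt-Co2, mt-Co3 and mt-Atp6 were hardly counted, at no more than 5.72, 5.54 and 6.14 FPKM in let-7Tg libraries, while mt-Co1 was at 2655 to 4440 FPKM.

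Cholesterol and fatty acid synthesis rose in 21 of 29 genes and fell in 6, with a median of 1.51. Idi1, of the mevalonate pathway, was at 23.8, 11.3 and 16.1 FPKM and then at 209, 102 and 209 FPKM (log2 change 3.53, SE 0.29, adjusted p = 1.17e-08). Cyp51, of sterol synthesis, was at 12.4, 7.72 and 9.07 FPKM and then at 118, 58.4 and 115 FPKM (log2 change 3.44, SE 0.26, adjusted p = 3.19e-09). In 28 of the 29 genes the 12 h replicate 2 lay below the mean of the other two, by a median of 0.692, the largest shift of the growth lists. Scd2 fell by 2.23, and Nsdhl and Scd1 were not called. The sterol regulatory element TCACNCCAC, searched on both strands, stood in 1 of 20 promoters of the list (5.0%), against 1.05% of those of tested genes.

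Redox genes rose in 16 of 23 cases and fell in 4. Txn1, which encodes thioredoxin, went from 56.1, 50 and 51.1 to 336, 288 and 356 FPKM (log2 change 2.86, SE 0.15, adjusted p = 5.05e-11). Srxn1, which repairs peroxiredoxins, was at 1.28, 0.470 and 0.953 FPKM and 4.01, 24.5 and 4.41 FPKM, with replicate 2 far above the other two (log2 change 2.77, SE 0.56, adjusted p = 0.000315). Cat, which encodes catalase, and Gpx4, which protects membranes, fell by 1.28 and 1.65, and Hmox1, Prdx4 and Nqo1 were not called.

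The PI3K, Akt and mTOR pathway did not move as a block, with 9 of 24 higher, 10 lower and a median of 0.0435. The mTORC1 genes Mtor, Rptor and Rheb rose by 0.55, 0.72 and 0.68, none of them 2-fold. Rictor, of mTORC2, fell from 25.1, 22.5 and 29.0 to 9.57, 11.2 and 7.88 FPKM (log2 change -1.15, SE 0.12, adjusted p = 1.61e-07). The PI3K subunit genes Pik3r1, Pik3cg and Pik3cd fell by 2.34, 2.15 and 1.4. Akt2 rose by 0.84, and Akt1, Pdpk1, Tsc1, Pik3cb and Deptor were not called.

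Regulators of G1 changed in both directions, with 13 of 25 higher and 10 lower. The kinase genes Cdk4 and Cdk6 rose by 1.86 and 1.94 and Ccnd2, which encodes cyclin D2, by 1.2, while Ccnd3 fell by 1.41. Cdkn1b, which encodes the inhibitor p27 of resting T cells, fell from 55.9, 55.2 and 53.3 FPKM to 7.37, 9.14 and 5.36 FPKM (log2 change -2.63, SE 0.15, adjusted p = 8.43e-11). Cdkn2d, which encodes p19INK4d, fell from 50.4, 55.8 and 51.8 FPKM to 4.02, 3.71 and 3.81 FPKM (log2 change -3.38, SE 0.08, adjusted p = 1.31e-14). Cdkn1a, the p53-inducible inhibitor p21, rose from 8.59, 4.19 and 5.85 FPKM to 40.2, 90.7 and 37.9 FPKM, with replicate 2 the highest (log2 change 3.24, SE 0.34, adjusted p = 1.92e-07). The pocket protein gene Rbl2 fell by 2.30, E2f1 rose by 2.29, and Cdc34, a ubiquitin-conjugating enzyme of the cell cycle, went from 31.8, 38.3 and 38.4 to 65.4, 71.7 and 71.6 FPKM (log2 change 1.18, SE 0.08, adjusted p = 1.17e-09). E2f7 and E2f8 were not called, at levels below 0.21 FPKM.

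Most DNA replication genes had risen by 12 h, and most mitosis genes were not called. Of 42 DNA replication genes 35 rose and 1 fell, with a median of 1.42. Mcm5, of the replicative helicase, was at 15.4, 15.1 and 16.6 FPKM in naive and 81.8, 72.0 and 128 FPKM in 12 h libraries (log2 change 2.73, SE 0.19, adjusted p = 1.55e-09). Pcna, the sliding clamp, was at 124, 137 and 116 FPKM and then at 384, 303 and 404 FPKM (log2 change 1.76, SE 0.13, adjusted p = 3.63e-09). Mcm2 and Mcm3 rose by 2.44 and 2.35. Rpa1 fell by 0.41, and Fen1, Tyms, Dnmt1, Chaf1b and Gins3 were not called, between -0.27 and 0.30. The 12 h libraries differed in order, with replicate 3 highest and replicate 2 lowest for Mcm2, Mcm3, Mcm4 and Mcm5, and 40 of 42 members were lower in replicate 2 than in the mean of the other two, by a median of 0.586. The letters TTTCCCGC, an E2F site, or their complement stood in 6 of 35 promoters of the list (17.1%) against 1.11% of all promoters and 2.15% of those of tested genes, namely in those of Mcm3, Mcm7, Cdc6, Gins3, Rfc3 and Pold1.

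Of 31 mitosis genes 9 rose, 4 fell and 18 were not called, with a median of 0.211. Cdk1, the mitotic kinase, was at 0.383, 0.493 and 0.286 FPKM and then at 1.56, 1.95 and 3.01 FPKM (log2 change 1.70, SE 0.28, adjusted p = 4.83e-05). Cdc20, an activator of the anaphase promoting complex, was at 5.32, 5.46 and 6.51 FPKM and then at 14.8, 7.70 and 12.9 FPKM (log2 change 1.15, SE 0.23, adjusted p = 0.000301). Top2a and Aurka rose by 1.11 and 0.97. Kif23, Ndc80, Plk1 and Prc1 fell, by 1.22, 0.87, 0.67 and 0.60, and Mki67, which marks cycling cells, was at 0.730, 0.579 and 0.544 and 0.106, 0.553 and 0.154 FPKM and was not called (log2 change -0.48, SE 0.25, adjusted p = 0.0994). The 18 uncalled genes had changes between -0.58 and 0.57. The count of risers was 5 instead of 9 without scaling, with upper quartile scaling, without the filter on low values, without naive replicate 3 and with the Xist term.

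**Figure D3:**
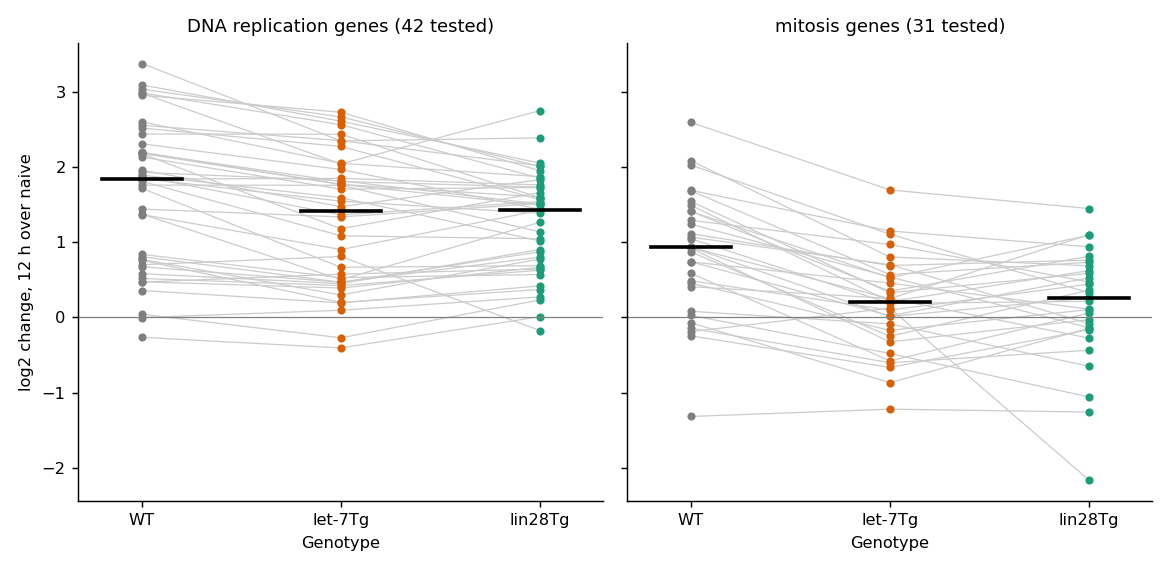
Log2 change between naive and 12 h of 42 DNA replication genes (left) and 31 mitosis genes (right) in WT, let-7Tg and lin28Tg cells. Points are genes, grey lines join a gene, and black bars are medians. In let-7Tg the medians are 1.42 and 0.211, against 1.85 and 0.932 in WT and 1.43 and 0.26 in lin28Tg.

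In WT cells 39 of the 42 replication genes and 22 of the 31 mitosis genes rose, and in lin28Tg cells 37 and 10 did, where 38% and 37.5% of all genes rose. The lin28Tg mitosis count was thus near the share of all genes. The change of let-7Tg cells lay below that of WT cells in 38 of 42 replication genes and in 29 of 31 mitosis genes, against 56.2% of all genes. The 12 h replicate 2 was lower than the mean of the other two in 40 of 42 and 25 of 31 of them, by medians of 0.586 and 0.215. Without it the change lay below WT in 28 of 42 replication genes, with a median difference of -0.0994 instead of -0.327, and in 29 of 31 mitosis genes, with a median of -0.612 instead of -0.702, against 49.6% of all genes. No member of either list passed the test of the difference from WT, so that these counts describe the lists and not single genes.

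Interferon-stimulated genes fell together during activation, 22 of 25 lower and 1 higher, with a median of -2.28. Ifit3, an antiviral protein gene, was at 74.8, 61.5 and 75.0 FPKM in naive and 0.361, 2.67 and 0.142 FPKM in 12 h libraries (log2 change -5.70, SE 0.56, adjusted p = 1.05e-07). Irf7, the factor that amplifies interferon production, was at 185, 217 and 218 FPKM and then at 3.18, 11.5 and 2.63 FPKM (log2 change -5.09, SE 0.36, adjusted p = 1.78e-09). Ifit1, Usp18, Mx1 and Isg15 fell by 5.19, 4.78, 4.51 and 4.29. Gbp2, a GTPase also induced by interferon γ, went from 60.5, 45 and 56.1 FPKM to 103, 118 and 66.1 FPKM (log2 change 1.03, SE 0.23, adjusted p = 0.000836). Igtp and Gbp3 were not called, at -0.18 and -0.42. In 22 of the 25 genes the 12 h replicate 2 was above the mean of the other two, by a median of 0.499. The receptor genes Ifnar1, Ifnar2 and Ifngr2 and the signaling genes Stat2 and Irf9 fell too, by 1.47, 1.33, 2.71, 2.16 and 1.58.

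The promoter of Ifit3 is printed because it holds the interferon-stimulated response element at 2 places, in capitals 156 and 122 bases before the start (chr19:34583279-34583578, plus strand, GRCm38.p6, RefSeq).
Ifit3: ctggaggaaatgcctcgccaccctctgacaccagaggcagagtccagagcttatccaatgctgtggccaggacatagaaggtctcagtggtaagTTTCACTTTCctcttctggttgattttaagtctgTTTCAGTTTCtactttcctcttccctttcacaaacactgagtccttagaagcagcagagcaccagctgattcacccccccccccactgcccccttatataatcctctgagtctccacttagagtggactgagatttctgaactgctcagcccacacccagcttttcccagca
The element, searched on both strands, was in 12 of 21 promoters of the list (57.1%), in 3.49% of all promoters and in 3.3% of those of tested genes. It was in 5.76% of the promoters of genes that fell at least 2-fold and in 2.54% of those that rose.

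Chromatin genes shifted within families. Of 19 Polycomb and DNA methylation genes 8 rose and 9 fell. Ezh2, the methyltransferase of dividing cells, was at 18.1, 22.8 and 20.0 FPKM and then at 54.7, 54.3 and 53.2 FPKM (log2 change 1.63, SE 0.16, adjusted p = 9.11e-08), while its relative Ezh1 of resting cells fell from 65.0, 71.8 and 69.4 FPKM to 31.3, 43.5 and 34.8 FPKM (log2 change -0.68, SE 0.10, adjusted p = 7.9e-06). Dnmt3a, which sets new DNA methylation, rose by 1.60, and Tet1, which starts its removal, fell from 11.1, 10.3 and 12.7 FPKM to 0.117, 0.329 and 0.0808 FPKM (log2 change -3.99, SE 0.16, adjusted p = 1.94e-12). Cbx8, Cbx7 and Cbx2, readers of the Polycomb mark, fell by 1.84, 1.5 and 1.28. Tet3 and Dnmt1 were not called.

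The machinery that makes and uses microRNAs was close to balance, with 6 of 18 higher and 7 lower. Drosha, Dgcr8 and Xpo5, which act in the nucleus and in export, rose by 1.16, 1.05 and 1.21. Dicer1, which cuts the hairpin and is itself a let-7 target, fell from 16.1, 13.9 and 15.9 to 11.2, 11.2 and 10.0 FPKM (log2 change -0.25, SE 0.08, adjusted p = 0.00946). Tnrc6a, Tnrc6b and Tnrc6c, the partners of Argonaute, fell by 0.51, 1.18 and 1.14, and Ago1 and Ago2 rose by 0.43 and 0.43, while without scaling between libraries 3 instead of 6 members rose. Tut4 and Tut7, which add uridine to let-7 precursors, fell by 0.83 and 0.76. Tarbp2, Ago3, Trim71, Lin28b and Prkra were not called. Mir99ahg, the host gene of a let-7c copy, was at 0 to 0.1 FPKM and not tested.

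Sites of let-7 are shown for 7 of the genes because the transgene product can pair with them. They are 22 bases long, end with CTACCTCA (in capitals), which pairs with the let-7 seed, and lie in the 3′ UTR on GRCm38 by GENCODE M21.
Cdc34, chr10:79688113-79688134 plus strand: cctcaggcgacagaCTACCTCA
Bcl2l1, chr2:152781191-152781212 minus strand: ccccaggggcttccCTACCTCA
Igf1r, chr7:68229111-68229132 plus strand: tttcaaacatttatCTACCTCA
E2f6, chr12:16826404-16826425 plus strand: tcacctagcgctctCTACCTCA
Arid3a, chr10:79953896-79953917 plus strand: aggcaagtttctttCTACCTCA
Tgfbr1, chr4:47410829-47410850 plus strand: ggaggctggttgttCTACCTCA
Ccr7, chr11:99144785-99144806 minus strand: catcccacttataaCTACCTCA
Cdc34, Bcl2l1, Igf1r and E2f6 rose between naive and 12 h let-7Tg cells, Arid3a and Tgfbr1 fell, and Ccr7 was not called.

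Of 27 textbook let-7 targets 13 rose and 8 fell, with a median of 0.66, and 14 of 27 (51.9%) hold CTACCTCA in the 3′ UTR against 3.24% of all tested genes with one. The list was made of known targets, so this share describes the list and is not a test. Igf1r, a growth factor receptor, was at 4.09, 3.19 and 4.85 FPKM in naive and 13.3, 9.33 and 12.6 FPKM in 12 h libraries (log2 change 1.65, SE 0.17, adjusted p = 2.01e-07). Hmga1 and Cdk6 rose by 2.0 and 1.94, and of the RAS genes Hras rose by 1.04 while Nras was not called (-0.21). Arid3b fell from 34.1, 39.0 and 40.1 FPKM to 10.1, 11 and 8.93 FPKM (log2 change -1.63, SE 0.08, adjusted p = 2.6e-11), Arid3a fell by 0.46, and Igf2bp2, Ccnd1 and Map4k4 fell by 1.46, 1.38 and 1.28. Hmga2 was at 0 in all 6 libraries. Median changes of the list were 0.678 in WT and 0.648 in lin28Tg, close to that of let-7Tg cells.

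The study also lists let-7 targets among genes of 1 of its expression clusters. This list was chosen on libraries of this series and is not independent evidence of its direction. Of its 38 genes 17 rose and 9 fell, with a median of 0.22, against medians of 0.621 in WT and 0.622 in lin28Tg. The rise of Dusp4 (4.87) and Hk2 (5.65) stood at its top and the falls of Abcb9 (-2.58) and Scd2 (-2.23) at its bottom. Suv39h2, a histone methyltransferase, went from 1.06, 0.935 and 1.06 FPKM to 3.19, 2.58 and 2.33 FPKM (log2 change 1.24, SE 0.13, adjusted p = 2.25e-07). Surf4, Stk40, Efhd2 and Zc3hav1l were among the 12 not called.

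Most large changes had the same direction in the other genotypes. Of the 2335 genes that rose at least 2-fold in let-7Tg cells 2299 (98.5%) were also called higher in WT, and of the 2523 that fell 2468 (97.8%) were called lower. In lin28Tg cells the shares were 96.1% and 96.4%. Across all called genes, 10 genes called in let-7Tg cells had the opposite call in WT, and 75 in lin28Tg.

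**Figure D4:**
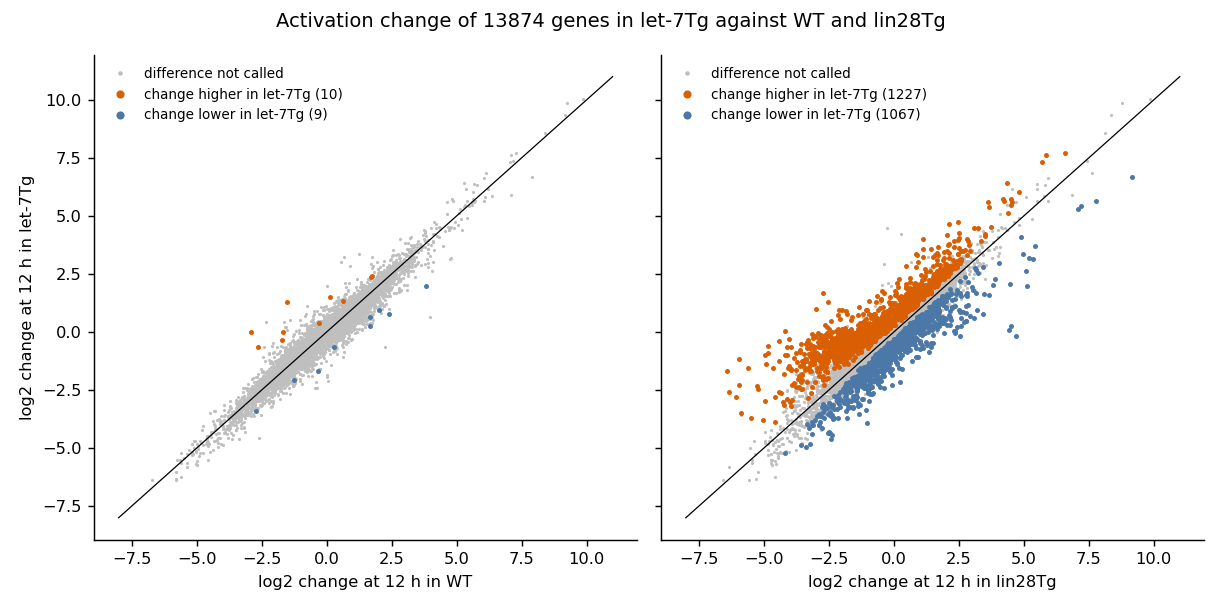
Log2 change between naive and 12 h for 13874 genes in let-7Tg cells (y axis) against WT (left, x axis) and lin28Tg (right, x axis). Each point is a gene, the line marks equal change, and colored genes differ between genotypes at adjusted p under 0.05, with 10 higher and 9 lower in let-7Tg against WT and 1227 higher and 1067 lower against lin28Tg.

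The difference itself was tested as an interaction in the model. The change of let-7Tg cells differed from that of WT cells in 19 genes (0.137%), 10 higher and 9 lower, while 1441 genes had an unadjusted p under 0.05. Mettl1, a methyltransferase of tRNA, went from 33.6 ± 1.43 to 149.9 ± 15.8 FPKM in let-7Tg (SD, n = 3) and from 40.9 ± 3.39 to 112 ± 4.72 FPKM in WT cells, a difference of 0.66 (SE 0.09, adjusted p = 0.0164). Nfatc1 went from 45.3 ± 2.85 to 97.2 ± 13.4 FPKM in let-7Tg and from 50 ± 3.01 to 64.3 ± 4.11 FPKM in WT, a difference of 0.70 (SE 0.11, adjusted p = 0.0257). Snhg15, a long noncoding host of small nucleolar RNAs, differed by 0.68 (SE 0.11, adjusted p = 0.0257), and Dixdc1, a Wnt pathway protein gene, by 1.35 (SE 0.22, adjusted p = 0.0257), from 0.169 to 1.28 FPKM in let-7Tg and 0.217 to 0.24 FPKM in WT.

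On the lower side, Cdk8, a kinase of the Mediator complex, went from 27.8 ± 2.78 to 37.8 ± 5.05 FPKM in let-7Tg and from 24.2 ± 0.845 to 65.4 ± 0.265 FPKM in WT, a difference of -1.01 (SE 0.13, adjusted p = 0.0152). Lrrc32, which encodes GARP, a protein that presents TGF-β, reached 0.392 ± 0.166 FPKM in let-7Tg and 2.04 ± 0.307 FPKM in WT, a difference of -1.62 (SE 0.24, adjusted p = 0.0207). Cep97, of the centrosome, fell from 37.1, 37.6 and 41.5 FPKM to 8.09, 8.24 and 6.32 FPKM and thus by more than in WT, a difference of -0.80 (SE 0.14, adjusted p = 0.0383). Cdkn2d differed by -0.65 (SE 0.12, adjusted p = 0.0383), Endou, an endoribonuclease gene, by -1.36 (SE 0.24, adjusted p = 0.0383) and Akr1c18, a steroid dehydrogenase gene at 0 to 0.215 FPKM in let-7Tg libraries, by -1.43 (SE 0.25, adjusted p = 0.0383). Col1a1, the locus of the transgene, differed by 2.83 (SE 0.50, adjusted p = 0.0383). Gm10499, an unprocessed pseudogene (chromosome 17, 36141758 to 36145923) whose reads may be shared with its gene family, was at most 0.0996 FPKM in let-7Tg libraries and fell in WT from 1.91 ± 0.467 FPKM, a difference of 1.68 (SE 0.27, adjusted p = 0.0257). The 19 were completed by Gm8810, Gm8909, Ptp4a3 and Trp53inp1 on the higher side and by Fam84a, Ripk2 and Wnt10b on the lower side, named after their values were seen.

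These 19 calls are sensitive to single libraries. Their number lay between 0, without WT 12 h replicate 3, and 71, without let-7Tg 12 h replicate 1, and with limma voom on the recovered reads it was 2. Within a stage, 74 genes were higher and 108 lower in let-7Tg than in WT naive cells, and 340 were higher and 658 lower at 12 h.

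Against lin28Tg cells the change differed in many more genes, 1227 higher in let-7Tg (8.84%) and 1067 lower (7.69%). The genotypes already differed before activation, with 2800 genes higher and 3145 lower in let-7Tg than in lin28Tg naive cells. At 12 h 1905 were higher and 2267 lower. Cdca7, a target of MYC and E2F, ended at like levels of 226 ± 29.6 FPKM in let-7Tg and 210.5 ± 7.80 FPKM in lin28Tg but started at 9.95 ± 0.633 and 58.5 ± 6.56 FPKM, a difference of 2.55 (SE 0.15, adjusted p = 9.17e-08). Ptger2, the prostaglandin E2 receptor EP2, started low in both and reached 31.8 ± 5.85 FPKM in let-7Tg and 9.63 ± 1.43 FPKM in lin28Tg, a difference of 2.27 (SE 0.21, adjusted p = 1.69e-05). Irf4 reached 292 ± 9.01 and 177 ± 18.1 FPKM, a difference of 1.79 (SE 0.17, adjusted p = 2.03e-05). The 12 h levels of Irf4 make up only part of this difference, and the rest lies in a higher naive level in lin28Tg cells. Cdca7 thus differed between genotypes mainly in naive cells and Ptger2 at 12 h. Hk2 differed by 1.4 (SE 0.32, adjusted p = 0.00887) in the same direction, with a 12 h level of 64.7 ± 7.56 against 119.7 ± 11.8 FPKM and a naive level of 1.03 ± 0.577 against 7.32 ± 2.83 FPKM. Lin28b and Fam83a were near 0 in let-7Tg cells and fell in lin28Tg cells, and their differences were 2.26 (SE 0.17, adjusted p = 1.86e-06) and 2.08 (SE 0.18, adjusted p = 6.97e-06).

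Ifng reached 91.5 ± 35.3 FPKM in let-7Tg, 229.8 ± 62.9 FPKM in WT and 1483 ± 178 FPKM in lin28Tg cells, and its change differed from that of lin28Tg by -2.50 (SE 0.62, adjusted p = 0.0136). Il2 reached 24.9 ± 12.4 FPKM in let-7Tg and 96.0 ± 44.1 FPKM in lin28Tg, a difference of -1.75 (SE 0.50, adjusted p = 0.0268). Il17a, the cytokine of type 17 cells, was at 0, 0 and 0 and 0.108, 0 and 0 FPKM in naive and 12 h let-7Tg libraries and at 9.83 ± 3.47 FPKM in 12 h lin28Tg cells, a difference of -4.33 (SE 0.26, adjusted p = 9.17e-08). Prf1, not called in let-7Tg cells, differed by -2.27 (SE 0.34, adjusted p = 0.000655). Of the 22 cytokines and chemokines 8 had a lower and 2 a higher change than in lin28Tg cells, although the median difference of the list was 0.394, and of the 11 cytotoxic genes 4 and 2, with a median of -0.775.

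Of the 11 JAK and STAT genes 5 had a lower and 0 a higher change than in lin28Tg cells. Stat5a went to 71.3 ± 6.61 FPKM in let-7Tg and to 203 ± 42.4 FPKM in lin28Tg, a difference of -1.68 (SE 0.16, adjusted p = 1.76e-05), and Stat5b differed by -0.95 (SE 0.14, adjusted p = 0.00057), Jak3 by -0.78 (SE 0.12, adjusted p = 0.000966) and Il4ra by -0.81 (SE 0.13, adjusted p = 0.000895). Bcl2l1 reached 93.1 ± 8.59, 157 ± 9.67 and 303 ± 55.0 FPKM in let-7Tg, WT and lin28Tg cells, and its change differed from that of lin28Tg by -1.07 (SE 0.22, adjusted p = 0.00438). Jade2, a chromatin reader gene, fell in let-7Tg cells from 42.5 ± 0.441 to 17.1 ± 1.14 FPKM and rose in lin28Tg cells from 23.7 ± 2.37 to 36.0 ± 2.38 FPKM, a difference of -1.92 (SE 0.12, adjusted p = 9.17e-08). Cdkn2d fell further in let-7Tg cells, a difference of -1.53 (SE 0.12, adjusted p = 1.88e-06), and the differences of Rbpj and Lrrc32 were -0.69 (SE 0.17, adjusted p = 0.0125) and -2.63 (SE 0.24, adjusted p = 1.34e-05). A530021J07Rik, a long intergenic RNA, was at 7.63, 9.63 and 6.27 FPKM in naive let-7Tg libraries and at 0 in all 3 at 12 h, at least 17-fold lower against 3 reads, and differed from lin28Tg by -2.87 (SE 0.25, adjusted p = 7.68e-06), where the naive level was 0.587 ± 0.0372 FPKM.

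The growth lists did not move as one against lin28Tg cells, beside the 8.84% higher and 7.69% lower of all genes. Of the 40 ribosome biogenesis genes 13 had a higher and 0 a lower change, of the 28 amino acid supply genes 7 and 0, and of the 20 unfolded protein response genes 6 and 1. The counts were 3 and 0 of 26 translation factors, 1 and 0 of 20 tRNA synthetases, 2 and 0 of 31 oxidative phosphorylation genes, 2 and 4 of 23 glycolysis genes and 0 and 1 of 29 genes of cholesterol and fatty acid synthesis. Pcna differed by 0.62 (SE 0.19, adjusted p = 0.0339) and Hspa5 by 0.88 (SE 0.12, adjusted p = 0.00039). A higher change can reflect a lower naive level or a higher 12 h level, and these counts and values do not tell them apart.

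The lin28Tg naive libraries stood apart in their markers. The 10 myeloid markers summed to 190.0, 1190.0 and 614 FPKM in naive lin28Tg libraries against 29.8 to 81.9 FPKM in naive let-7Tg libraries, and 7 of the 10 had a higher change in let-7Tg cells, that is a smaller fall. The 8 dendritic cell markers summed to 1140.0 to 3180.0 FPKM in naive lin28Tg and 269 to 582 FPKM in naive let-7Tg libraries. Without lin28Tg naive replicate 2, the highest of them, 1459 genes instead of 2294 differed between let-7Tg and lin28Tg cells. Leaving out any other single library of either genotype gave 1557, without lin28Tg 12 h replicate 3, to 2453, without lin28Tg naive replicate 1. All 3 naive lin28Tg libraries held both Xist, at 68.2 to 115 FPKM, and Ddx3y, at 13 to 37.4 FPKM. At 12 h lin28Tg replicate 3 held both as well, at 112 and 15.1 FPKM, while replicates 1 and 2 held Ddx3y and at most 0.112 FPKM of Xist. WT naive replicates 2 and 3 read as female and the other 4 WT libraries as male. With the term for libraries above 1 FPKM of Xist 2331 genes differed from lin28Tg and 20 from WT, close to 2294 and 19. The part of other cells in these differences was not tested.

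**Figure D5:**
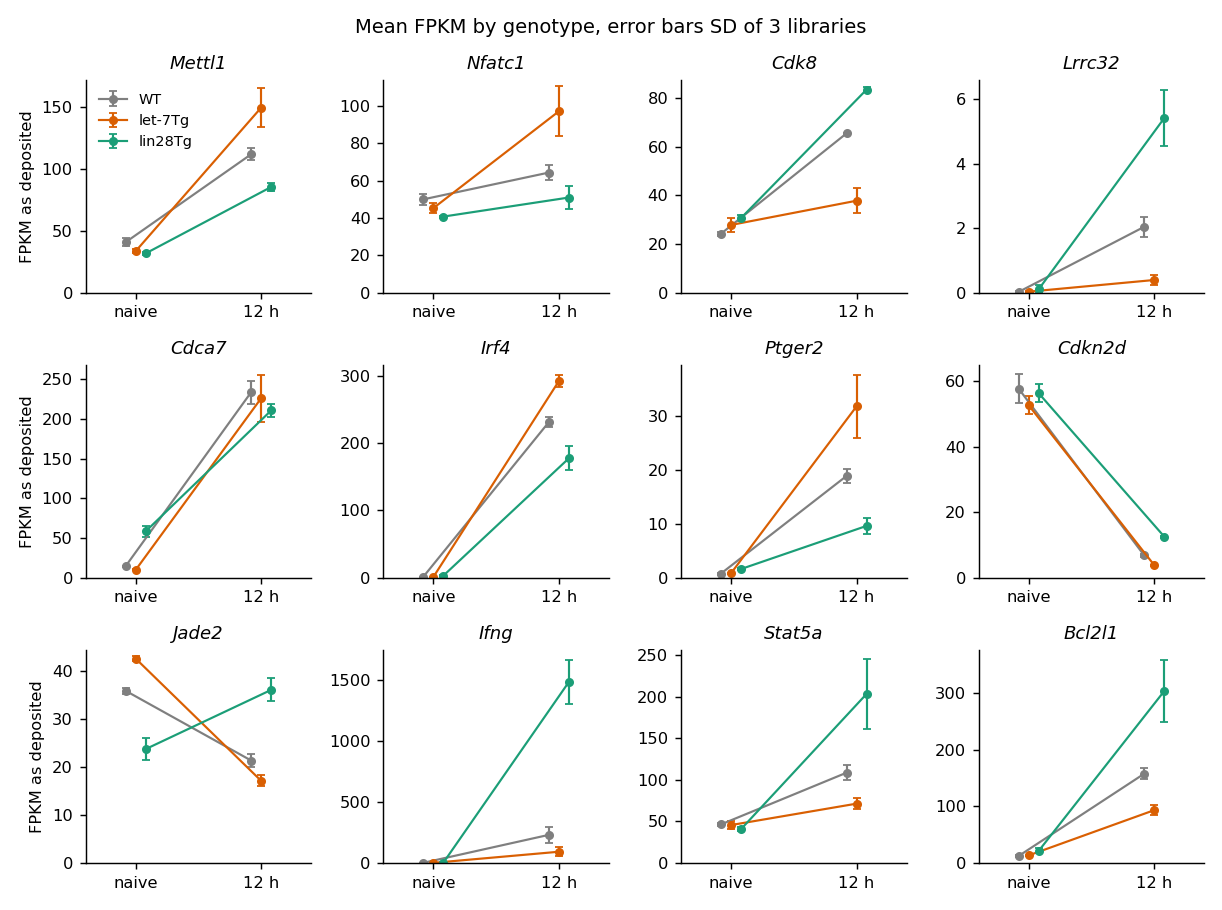
Mean deposited FPKM in naive and 12 h cells of WT (grey), let-7Tg (orange) and lin28Tg (green) for 12 genes whose change between the stages differed between let-7Tg and WT or lin28Tg. Error bars are SD of 3 libraries. At 12 h let-7Tg is the highest genotype for Mettl1, Nfatc1, Irf4 and Ptger2 and the lowest for Cdk8, Lrrc32, Cdkn2d, Jade2, Ifng, Stat5a and Bcl2l1, while Cdca7 differs in the naive cells.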

How the data were processed

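P14 CD8 T cells of let-7Tg, WT and lin28Tg mice were compared, naive and after 12 h of activation, with 3 libraries per group. Per the labels, reads were aligned with TopHat2 2.0.9 and Bowtie2 2.0.6 to GRCm38 (mm10) and counted with HTSeq 0.6.1. The deposited values are FPKM, that is, the authors' read counts divided by the length of the gene and by the total of the library, with no further scaling of 1 library to another. The deposited tables also hold the authors' group signal, log2 fold changes, DESeq2 p-values and heatmap clusters, which were not used. The 2 tables were joined by 35275 gene IDs. Reads were recovered by choosing for each gene a unit that makes its values whole. All 308528 values above 0 were then whole reads (100.0%, tolerance 0.05 reads), a share that is not an independent check. The 18 libraries held 13862706 to 23591069 counted reads, which makes 10 reads worth 0.212 to 0.361 FPKM for a 2 kb gene (counting error only).

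FPKM were scaled by trimmed means of log ratios (30% of ratios and 5% of levels trimmed at each end), and log2(scaled FPKM + 0.5) was fitted in 1 model with a term for each of the 6 groups by limma 3.58.1 (R 4.3.3), with moderated, trended variance, 12 residual degrees of freedom and Benjamini-Hochberg adjustment over 13874 genes. Folds of low genes are understated by the pseudocount. Genes were kept with the equivalent of 10 reads in at least 3 libraries and called at an adjusted p under 0.05. The change of let-7Tg cells was compared with that of WT and lin28Tg cells by an interaction contrast. Alternatives were other scalings, pseudocounts of 0.1 and 1, no filter or a filter of 1 FPKM, a replicate block, fewer groups, each library left out, a term for Xist and limma voom on the recovered reads, which called 4995 genes higher and 4965 lower at 12 h. Levels in the text are deposited FPKM and changes are log2 of scaled FPKM + 0.5. On simulated data for the let-7Tg activation comparison over 14019 genes, 92% and 94% of 50 genes each with a log2 change of 1 and -1 and 100% of those with 2 and -2 were recovered, and 0.0579% of unchanged genes were called. Only well-covered genes were changed there, all others were equal at both let-7Tg stages, and the spread between replicates was fixed. The simulation thus cannot tell how scaling acts when most genes change, or how an uneven library such as 12 h replicate 2 acts.

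Genes were named by rule. These are genes the study names for naive or 12 h cells, the 6 protein-coding genes with the largest called change in each direction among those with no overlap between stages and a higher group mean of at least 10 FPKM, and for both directions of each interaction contrast the 5 genes lowest in adjusted p. Further names are the 4 members of each list with the largest called change in each direction, list members not called or with a described role, and genes that check the labels. The members and gene lists were chosen with earlier results of these data known. Positions are from GENCODE M21, which holds 34490 of the gene IDs, and sequences from GRCm38 and RefSeq (GRCm38.p6). Gbp5 and Gbp6 were not analysed here, and some members of the lists, which the counts include, are not reported by name. Python 3.11.15, pandas 2.3.3 and numpy 2.4.6 were used.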

Additional observations from a re-analysis of the deposited data

Results flagged for a closer look

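The change between naive and 12 h cells differed between genotypes, by the interaction contrast at an adjusted p under 0.05, in 19 genes against WT and in 2294 genes against lin28Tg. Values below are the log2 change in let-7Tg cells minus that in the other genotype, for genes named by a rule other than list membership.

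Against WT the difference was 2.83 for Col1a1, 1.68 for Gm10499, 1.35 for Dixdc1, 0.70 for Nfatc1, 0.68 for Snhg15 and 0.66 for Mettl1. It was -0.65 for Cdkn2d, -0.80 for Cep97, -1.01 for Cdk8, -1.36 for Endou, -1.43 for Akr1c18 and -1.62 for Lrrc32.

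Against lin28Tg the change was higher in let-7Tg cells by 3.85 for Col1a1, 2.55 for Cdca7, 2.27 for Ptger2, 2.26 for Lin28b and 2.08 for Fam83a. Smaller positive differences were 1.79 for Irf4, 1.64 for Dixdc1, 1.4 for Hk2, 1.14 for Spry1, 0.82 for Gm10499, 0.74 for Nfatc1, 0.69 for Mettl1, 0.62 for Pcna and 0.56 for Snhg15.

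Among cytokines and their signaling genes the difference from lin28Tg was -4.33 for Il17a, -2.50 for Ifng, -1.75 for Il2, -1.68 for Stat5a, -0.95 for Stat5b, -0.81 for Il4ra and -0.78 for Jak3. The remaining negative values were -2.87 for A530021J07Rik, -2.63 for Lrrc32, -1.92 for Jade2, -1.53 for Cdkn2d, -1.32 for Endou, -1.07 for Bcl2l1, -1.06 for Cep97, -1.03 for Cdk8, -0.69 for Rbpj and -0.35 for Cdc34.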

How the results depend on the processing

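The counts of genes that rose or fell in let-7Tg cells stayed within 1.5 times of 5030 and 5029 (at least 2-fold, 2335 and 2523) under every alternative run. For genes named by a rule other than list membership, 875 values under an alternative kept direction and side of the threshold, with 2 exceptions. Notch2 passed the threshold without scaling (-0.36, adjusted p = 0.0107, limma) and with upper quartile scaling (-0.28, adjusted p = 0.0334, limma). Genes named only as list members were not in this count, and the calls of Fos, Havcr2 and Entpd1 were lost without the 12 h replicate 2. Without scaling 40.7% of called genes were higher, against 50% with the scaling used. Of the list counts 1000 stayed within 1.5 times and 20 did not. The 19 genes that differed from WT became 5 with a pseudocount of 0.1, 10 without the filter, 2 with limma voom on recovered reads, 10 with the replicate block and 7 in a fit of only the 12 let-7Tg and WT libraries. With 1 library left out they numbered 0 (without WT 12 h replicate 3, 1084 at an unadjusted p under 0.05, limma) to 71 (without let-7Tg 12 h replicate 1). Counts of 2 to 10 came without WT 12 h replicates 1 and 2, WT naive replicates 2 and 3, each let-7Tg naive replicate and let-7Tg 12 h replicate 3. Named genes of this contrast kept the call in 135 values and missed the threshold in 90. The 2294 genes that differed from lin28Tg became 1299 with voom and 1459 to 2453 with 1 library left out, lowest without lin28Tg naive replicate 2. The cause was not tested. Residuals of same-numbered naive and 12 h let-7Tg replicates correlated by 0.0573, -0.138 and -0.0953, and those of differently numbered ones by -0.097 to 0.184. No pairing by number was seen, though residuals from means of 3 libraries cannot exclude it. Naive replicates 2 and 3 read as female and all 12 h let-7Tg libraries as male. The replicate block, with 5048 higher and 5017 lower genes, left the other counts within 1.5 times. Low genes are limited by depth, as 3 reads are worth 0.0636 to 0.108 FPKM for a 2 kb gene.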

Other observations

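The letters CTACCTCA stood in the 3′ UTR of 391 tested genes, the 7 bases CTACCTC alone in 752, and neither in 10939. The median log2 change from naive to 12 h let-7Tg cells was 0.005, -0.117 and 0.018 in these classes, against 0.026, -0.0875 and 0.05 in WT cells. The share of genes that rose was 37.6%, 33.4% and 38.9%, and the share that fell 32.2%, 38.6% and 35.5%. Between genotypes at 12 h, the median of let-7Tg minus lin28Tg was -0.134, -0.091 and -0.013, and that of let-7Tg minus WT was -0.088, -0.0765 and -0.028. In naive cells these medians were already -0.111, -0.057 and 0.005 against lin28Tg and -0.052, -0.0405 and 0.005 against WT. The classes differ in the length of the 3′ UTR, with medians of 2233, 2181 and 864 bases, whose part in these values was not tested.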
